A study of Mus musculus with 29 samples.

Results

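The genes Bach2, Cmah, Akap12, Carmil1 and D13Ertd608e were followed in bone marrow and spleen of mice carrying the tamoxifen-dependent leukaemia fusion MLL-ENL-ERtm. They were chosen by their log2 levels, which lay below wild type in most marrow states and spleen stages of this series, so their differences from wild type are a description and carry no test here. A probe set, the group of array probes that reads out 1 transcript, was taken when its annotation named exactly 1 of these genes. This gave 6 probe sets of 22690 on the array, and 5 genes of 12394 measured. Cmah had a pair of probe sets, 1421214_at and 1428043_a_at, of which 1421214_at was the brighter in both tissues. The others were 1437667_a_at for Bach2, 1419706_a_at for Akap12, 1451804_a_at for Carmil1 and 1439771_s_at for D13Ertd608e. By the array maker's naming, the suffix of the last marks probes shared between several transcripts.

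MLL-ENL joins the start of the MLL gene to ENL and drives leukaemia, and the ERtm part, a mutated hormone-binding piece of the oestrogen receptor, makes the protein active only with tamoxifen. The 29 arrays are of mice that all, wild type included, ate chow with 300 mg/kg tamoxifen. The fusion marrows comprised 4 arrays of the proliferation state (7 months of tamoxifen), 4 of the transition (7 to 8 months) and 3 of senescence (8 months), set against 4 of wild-type marrow (7 or 8 months). The fusion spleens comprised 3 arrays of the early stage (7 months), 3 of progression (9 to 10 months) and 3 of the terminal stage (19 to 23 months), set against 5 of wild-type spleen (8 to 24 months). What drives the fusion gene, and whether a marrow and a spleen came from 1 mouse, was not given in the sources used here.

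Bach2 encodes a transcriptional repressor of B lymphocytes that binds DNA together with small Maf proteins and holds back the plasma cell regulator Prdm1 and the haem oxygenase gene Hmox1. Cmah encodes the enzyme that hydroxylates CMP-N-acetylneuraminic acid and so gives mouse cells the sialic acid Neu5Gc, which B cell lectins such as CD22 recognise. Akap12 encodes a scaffold that anchors protein kinases A and C under the membrane. Carmil1 encodes a regulator of the capping protein that closes the growing ends of actin filaments. D13Ertd608e has no described function that could be used here, and the RefSeq annotation classes it as a non-coding transcript of the miscellaneous type.

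The members were looked up in RefSeq's table of gene starts (assembly GRCm38.p6, 250 bases before to 50 after each start), which held windows for 2 of the 5 genes: 1 for Bach2 and a pair for Cmah. They are shown for the genes with the most calls below wild type, both lower in all 6 comparisons. Capitals mark the CCAAT box, the only one of 7 searched motifs found in them.
Bach2, chr4:32417185-32417484, plus strand: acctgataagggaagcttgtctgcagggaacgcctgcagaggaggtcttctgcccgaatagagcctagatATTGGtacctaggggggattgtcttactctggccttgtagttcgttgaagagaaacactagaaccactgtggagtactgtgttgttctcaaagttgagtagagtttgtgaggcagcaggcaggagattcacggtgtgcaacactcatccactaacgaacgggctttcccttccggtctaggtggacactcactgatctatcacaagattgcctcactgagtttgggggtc
Cmah, chr13:24327154-24327453, plus strand: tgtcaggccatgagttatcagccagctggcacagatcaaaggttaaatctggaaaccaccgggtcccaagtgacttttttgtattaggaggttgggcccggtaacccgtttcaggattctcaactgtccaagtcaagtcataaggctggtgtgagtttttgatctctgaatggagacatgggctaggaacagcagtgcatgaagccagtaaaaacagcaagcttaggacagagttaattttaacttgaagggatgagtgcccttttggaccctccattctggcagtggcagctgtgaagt
Cmah, chr13:24414872-24415171, plus strand: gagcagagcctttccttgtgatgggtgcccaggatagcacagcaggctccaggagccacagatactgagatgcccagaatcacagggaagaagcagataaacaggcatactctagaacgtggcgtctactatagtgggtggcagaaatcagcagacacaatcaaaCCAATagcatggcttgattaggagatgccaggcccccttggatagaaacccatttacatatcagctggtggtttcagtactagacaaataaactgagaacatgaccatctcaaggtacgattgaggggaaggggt
The match in the Bach2 window lay on the minus strand at bases 71 to 75, and that in the second Cmah window on the plus strand at bases 166 to 170. CCAAT occurred on either strand in 37.4% of the 32851 promoters of the table. The other letters searched on both strands were TATAAA (in 13.6% of promoters), GGGCGG (35.7%), CACGTG (7.15%), TGANTCA (7.81%), GAGGAAGT (3.2%) and the EBF1 half-site pair (0.904%), and none of these occurred in the 3 windows. The Bach2 window held 7 CpG dinucleotides and each Cmah window 3, against a median of 7 over all promoters.

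Levels are log2 intensities and were compared within a tissue only, since the 15 marrow arrays had medians of 8.11 to 8.29 and the 14 spleen arrays of 6.73 to 6.90. The lower quartile of an array's values was 4.56 to 4.81 in spleen, and the lowest spleen levels given below are close to it. In marrow it was 6.13 to 6.32. Most fusion marrows lay below it for Carmil1, as did the lowest proliferation marrows for D13Ertd608e, so these differences involve dim levels. Each marrow array carried neutrophil granule genes at a mean of 14.01 to 14.51, and the wild-type spleens mature B cell genes at a mean of 11.0 to 11.2. Proliferation marrow replicate 1 stood apart in 10 adipocyte and muscle genes (mean 10.54, against at most 7.93 in the other marrow arrays), and wild-type spleen replicate 3 in 9 genes of the exocrine pancreas (mean 12.23). Without the first of these, all 5 genes were still called lower in proliferation marrow. Without the second, all 5 were still called lower in each spleen stage.

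Bach2 was at 7.47, 7.66, 6.64 and 7.31 in proliferation marrow. It was at 7.06, 7.15, 7.35 and 7.16 in transition marrow and at 7.02, 7.71 and 7.64 in senescence marrow, against 9.59, 8.38, 9.51 and 9.52 in wild-type marrow. Every fusion marrow lay below every wild-type marrow, and wild-type replicate 2 stood apart as the lowest of its group. These are bulk tissues, in which fewer cells of a type and less RNA per cell cannot be told apart. In spleen Bach2 was at 8.58, 9.03 and 7.74 in the early stage, 7.01, 7.05 and 9.16 in progression, and 6.99, 5.54 and 6.73 in the terminal stage, against 9.93, 10.72, 10.23, 10.70 and 10.82 in wild type. Again no fusion spleen reached the lowest wild-type spleen. The third progression spleen was the highest of all fusion spleens, and the terminal spleens lay below all 3 early ones. The difference from wild type was -1.98 ± 0.27 (log2, SE) in proliferation, -2.07 ± 0.27 in transition and -1.79 ± 0.29 in senescence marrow. In spleen it was -2.03 ± 0.47 in the early stage, -2.74 ± 0.47 in progression and -4.06 ± 0.47 in the terminal stage. The terminal value is a level 16.7-fold lower, and the largest difference of the 5 genes in any comparison.

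The brighter Cmah probe set was at 7.84, 8.25, 8.01 and 8.11 in proliferation, 7.84, 7.70, 7.36 and 7.69 in transition and 7.82, 8.29 and 7.93 in senescence marrow, against 9.42, 9.05, 9.00 and 8.82 in wild-type marrow. Fusion and wild-type marrows did not overlap. In spleen it was at 7.20, 7.49 and 7.06 in the early stage, 6.45, 6.71 and 7.34 in progression and 7.14, 7.34 and 7.95 in the terminal stage, against 8.34, 8.53, 8.10, 8.45 and 8.53 in wild type. Progression replicates 1 and 2 were the lowest, and the highest fusion spleen was a terminal one, still below all wild-type spleens. The differences from wild type were -1.02 ± 0.16, -1.43 ± 0.16 and -1.06 ± 0.17 in proliferation, transition and senescence marrow. In early, progression and terminal spleen they were -1.14, -1.55 and -0.91, each ± 0.21.

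The second Cmah probe set gave smaller differences in the same direction. Its means ± SD were 6.78 ± 0.14 in proliferation (n = 4), 6.61 ± 0.05 in transition (n = 4) and 6.85 ± 0.14 in senescence marrow (n = 3), against 7.49 ± 0.48 in wild-type marrow (n = 4). Wild-type marrow replicate 1, at 8.21, was far above the other 3, which lay between 7.18 and 7.30, yet no fusion marrow overlapped with them. In spleen the means were 6.12 ± 0.28 in the early stage, 5.86 ± 0.20 in progression and 6.36 ± 0.26 in the terminal stage (n = 3 each), against 6.87 ± 0.37 in wild type (n = 5). The highest terminal spleen, at 6.64, lay above the lowest wild-type spleen, at 6.62, so this probe set overlapped there. Its differences from wild type were -0.71, -0.89 and -0.64 in the 3 marrow states in order of time, and -0.75, -1.01 and -0.51 in the 3 spleen stages.

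Akap12 was at 8.07, 7.60, 6.95 and 7.00 in proliferation, 7.13, 7.14, 7.43 and 7.82 in transition and 7.72, 8.35 and 7.87 in senescence marrow, against 9.77, 8.50, 8.78 and 9.57 in wild-type marrow. The groups did not overlap, but the highest senescence marrow came within 0.14 of the lowest wild-type one. In spleen it was at 6.59, 6.96 and 5.50 in the early stage, 6.49, 6.05 and 6.99 in progression and 5.05, 5.30 and 5.03 in the terminal stage, against 7.53, 7.87, 7.19, 8.03 and 8.21 in wild type. The terminal spleens were the lowest and closest to each other, and no fusion spleen reached the wild-type range. Differences from wild type were -1.75 ± 0.30, -1.77 ± 0.30 and -1.17 ± 0.33 in the marrow states and -1.42, -1.26 and -2.64, each ± 0.31, in the spleen stages.

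Carmil1 was at 6.03, 5.99, 5.67 and 5.91 in proliferation, 6.17, 5.62, 6.24 and 6.15 in transition and 6.04, 6.71 and 6.13 in senescence marrow, against 7.18, 7.04, 6.95 and 7.13 in wild-type marrow. It was the gene with the narrowest wild-type marrow group (SD 0.10, n = 4), and the fusion marrows stayed below it. In spleen it was at 5.80, 5.64 and 5.07 in the early stage, 5.48, 4.99 and 5.56 in progression and 4.73, 4.38 and 4.51 in the terminal stage, against 6.54, 6.43, 6.63, 6.79 and 6.97 in wild type. All 3 terminal spleens lay below all other spleens. Differences from wild type were -1.17 ± 0.17, -1.03 ± 0.17 and -0.78 ± 0.18 in the marrow states and -1.17, -1.33 and -2.13, each ± 0.18, in the spleen stages.

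D13Ertd608e was at 6.08, 6.12, 6.52 and 6.82 in proliferation, 7.28, 6.61, 6.95 and 6.70 in transition and 7.29, 7.83 and 7.22 in senescence marrow, against 8.54, 8.61, 9.74 and 9.27 in wild-type marrow. Here the proliferation marrows were lowest on average, though replicate 4 lay above transition replicates 2 and 4, and even the highest senescence marrow stayed 0.71 below the lowest wild-type marrow. In spleen it was at 5.44, 5.88 and 4.76 in the early stage, 5.52, 5.21 and 4.95 in progression and 4.36, 4.81 and 4.67 in the terminal stage, against 5.84, 6.36, 6.38, 6.46 and 7.03 in wild type. By the brightest probe sets it was the 1 gene of the 5 whose groups overlapped, by a single early spleen at 5.88 above the wild-type spleen of 24 months at 5.84. Differences from wild type were -2.65 ± 0.26, -2.15 ± 0.26 and -1.59 ± 0.29 in the marrow states and -1.05, -1.19 and -1.80, each ± 0.26, in the spleen stages.

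**Figure D1:**
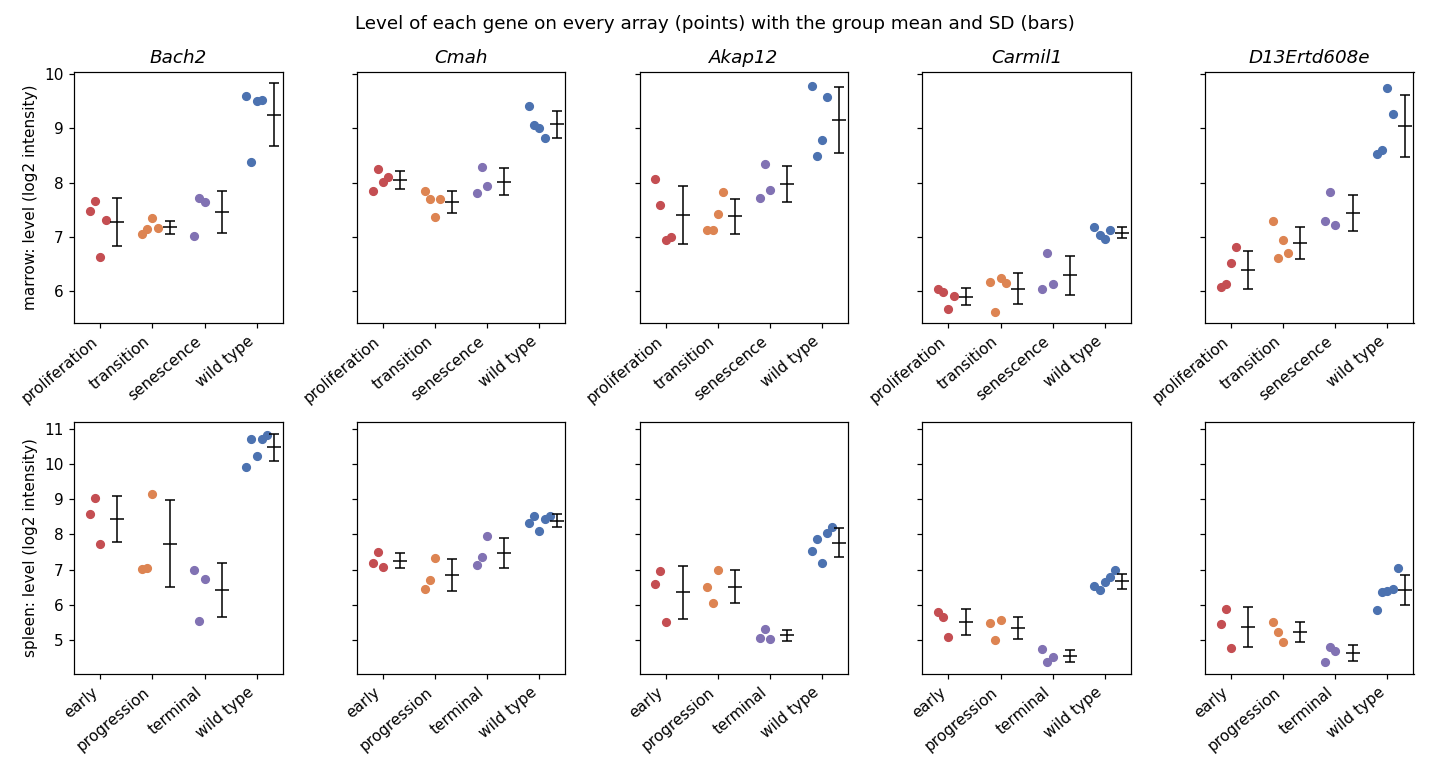
Log2 level of each gene on every array (points, brightest probe set) in marrow (top) and spleen (bottom), with the group mean and SD as bars beside the points; groups run along the x axis. Fusion points lie below all wild-type points in every panel except D13Ertd608e in spleen, where early replicate 2 at 5.88 lies above wild-type replicate 1 at 5.84.

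All 11 fusion marrows were below all 4 wild-type marrows for 5 of the 5 genes, which holds for 0.331% of all genes. All 9 fusion spleens were below all 5 wild-type spleens for 4 of the 5, which holds for 6.66% of all genes. Both held together for 0.234% of all genes, and a lower value in all 6 comparisons, as in the 5 members, for 9.04%. Since these arrays served to choose the genes, nothing is read from these shares about them. The same applies to the calls by limma, a linear model with moderated variance fitted over all genes (Benjamini-Hochberg adjusted p under 0.05). By limma 5 of 5 were lower in proliferation marrow (0.169% of all genes), 5 in transition marrow (0.234%) and 2 in senescence marrow (0.0161%). In spleen 5 were lower in the early stage (8.55%), 5 in progression (9.96%) and 5 in the terminal stage (16.3%). In senescence marrow only Bach2 and Cmah were past the threshold, with D13Ertd608e just outside it at -1.59 (limma adjusted p = 0.0657), and Carmil1 and Akap12 at -0.78 and -1.17. The senescence count fell to 0 when senescence replicate 1 or 3 or wild-type replicate 1 or 3 was left out, to 1 without senescence replicate 2 or wild-type replicate 4, and stood at 3 without wild-type replicate 2. Left out in turn, no array took the counts of the other 5 comparisons below 4 of 5. With Xist as a covariate, limma called 2 of 5 in proliferation (Bach2 and D13Ertd608e) and 3 in transition marrow (these and Cmah). The level of Xist, transcribed from the inactive X chromosome of females, was 12.61 to 13.32 in all 8 of these marrows, against 7.21, 7.60, 13.04 and 13.11 in wild-type marrow, so only the wild-type group held arrays of low Xist in these comparisons.

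**Figure D2:**
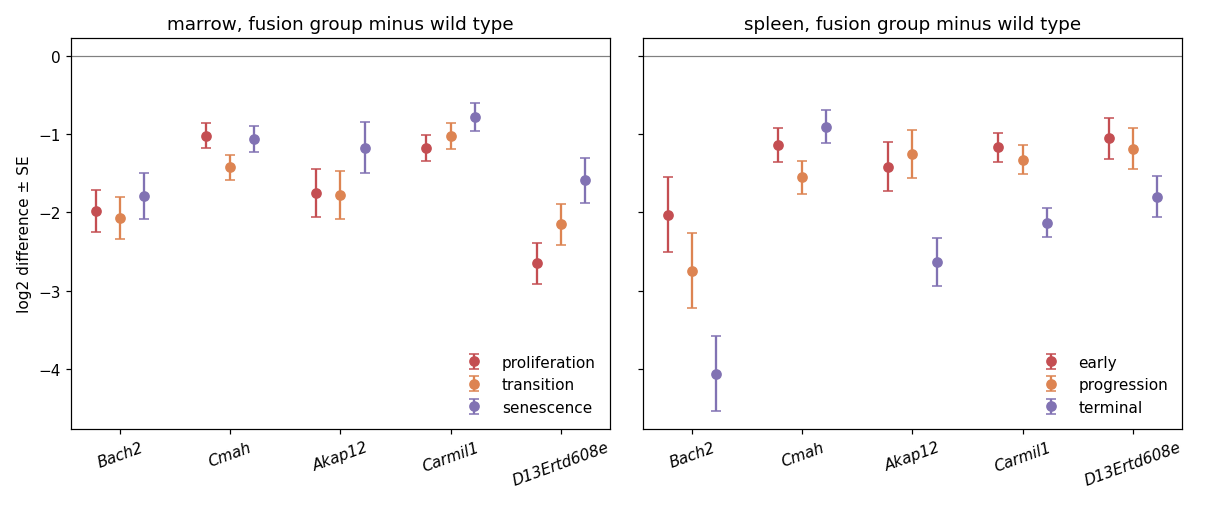
Log2 difference between each fusion group and wild type (points, with SE bars) for the 5 genes in marrow (left) and spleen (right). Every point lies below 0, the lowest at -4.06 for Bach2 in terminal spleen and the highest at -0.78 for Carmil1 in senescence marrow.

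Other genes met the same description. Of 12394 genes 27 (0.218%) were called lower in at least 4 of the 6 comparisons with wild type, the 5 members and 22 others, and 2 (0.0161%), Bach2 and Cmah, in all 6. Blnk, Fcer2a, Fcrla, Gm16793, Sit1, Slc41a2 and Spib were called lower in 5, as were Akap12, Carmil1 and D13Ertd608e. Fcer2a, the low-affinity IgE receptor of B cells, differed from wild type by -1.65, -1.63 and -1.49 in marrow and by -2.50 in early and -4.52 in terminal spleen. Spib, a transcription factor of B and dendritic cells, differed by -2.59, -2.53 and -1.76 in marrow and -2.14, -2.67 and -4.35 in spleen. Blnk, an adaptor of B cell receptor signalling, differed by -1.39, -1.33 and -1.11 in marrow and -1.77, -2.61 and -3.26 in spleen. Called lower in 4 were Ablim1, Arhgap12, Cd55, Cd5l, Cd79b, Cnn3, Ebf1, Foxo1, Ighv14-2, Ly6d, Pacsin1, Ralgps2, Sbk1, Ube2e2 and Vpreb3. Of the 22 genes outside the members, 6 stood in the B cell marker lists used here. A further 674 genes were called lower in exactly 3 comparisons.

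The choice of genes did not use the contrasts between fusion groups, but it did use the levels of the same fusion arrays. The counts for these contrasts are therefore descriptions too. Between the fusion groups the spleen gave 4 calls for 3 genes and the marrow none. Akap12 was lower in terminal spleen than in progression (log2 difference -1.38 ± 0.35, limma adjusted p = 0.0325, 3 of 3 terminal arrays below all 3 progression arrays). Carmil1 was lower there too (difference -0.80 ± 0.21, limma adjusted p = 0.0354, 3 of 3 arrays). That is 2 of 5 genes, against 5.86% of all genes called in either direction (3.3% lower and 2.56% higher). Against the early stage, terminal spleens had less Bach2 (-2.03 ± 0.53, limma adjusted p = 0.0369) and less Carmil1 (-0.96 ± 0.21, limma adjusted p = 0.0134), each with 3 of 3 terminal arrays below all early ones. This was again 2 of 5, against 6.61% of all genes (3.88% lower and 2.73% higher). Carmil1 was thus lower in the terminal stage than in both earlier stages.

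The remaining terminal differences did not pass. Akap12 against the early stage was -1.22 (95% interval -1.96 to -0.48, limma adjusted p = 0.0504), and Bach2 against progression -1.32 (-2.45 to -0.18, limma adjusted p = 0.144). D13Ertd608e was at -0.61 (-1.24 to 0.02) against progression and -0.75 (-1.38 to -0.12) against early. Cmah had the opposite sign, +0.65 (0.14 to 1.15, limma adjusted p = 0.111) against progression and +0.23 (-0.28 to 0.74) against early, and its second probe set read +0.50 and +0.24. Whether Cmah differed from the other genes in this was not tested. These calls rest on few arrays. Akap12 kept its call against progression only without progression replicate 2, with limma adjusted p up to 0.0894 without another array. Carmil1 kept it without progression replicate 2 or terminal replicate 1, and reached 0.12 otherwise. Against early, Bach2 kept its call without early replicate 3 or terminal replicate 1 and Carmil1 without these or terminal replicate 3, while without early replicate 3 a total of 4 genes were called, Akap12 and D13Ertd608e included. By the brightest probe sets that array was the lowest early spleen for all 5 genes. By the second Cmah probe set it was the highest early spleen, at 6.42.

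The groups also differed in other ways. The terminal mice had 19 to 23 months of tamoxifen, against 9 to 10 in progression. The level of Xist was 11.58 to 12.15 in the terminal spleens and 5.39 to 5.72 in those of progression, so sex and stage cannot be told apart between these groups. With Xist as a covariate, 0 of 5 genes were called between terminal and progression spleens by limma, with Akap12 at -1.61 (limma adjusted p = 0.0912) and Carmil1 at -1.03 (limma adjusted p = 0.0601). Against the early stage Carmil1 kept its call and Bach2 did not (-2.03, limma adjusted p = 0.0909). Gapdh's 3' minus 5' probe set level, a measure of RNA integrity, was at most 0.44 in terminal, 0.68 in progression and 1.07 in early spleens. With it as a covariate, neither call against the early stage held (Bach2 at -1.44, limma adjusted p = 0.112, and Carmil1 at -0.79, limma adjusted p = 0.0514). Against progression Akap12 and Carmil1 kept theirs, and Cmah was called higher (0.69, limma adjusted p = 0.0351).

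Progression and early spleens gave 0 of 5 calls by limma (0% of all genes), and 0 of 5 at an unadjusted p under 0.05. The differences there lay between -0.71 (Bach2, 95% interval -1.85 to 0.43) and 0.16 (Akap12, -0.58 to 0.90). In marrow no gene of the array was called between states by limma (0% in each of 3 comparisons). At an unadjusted p under 0.05 there were 1 of 5 in transition against proliferation (Cmah, -0.41), 1 in senescence against transition (Cmah, 0.37) and 2 in senescence against proliferation (Carmil1, 0.39, and D13Ertd608e). Of all genes 2.15%, 3.07% and 1.01% were under this threshold in these comparisons. D13Ertd608e had the largest of these differences, 1.06 ± 0.29 higher in senescence than in proliferation, with 95% interval 0.45 to 1.67 and limma adjusted p = 1.0. All 3 senescence marrows were above all 4 proliferation marrows for this gene, and the transition marrows lay between 6.61 and 7.28.

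**Figure D3:**
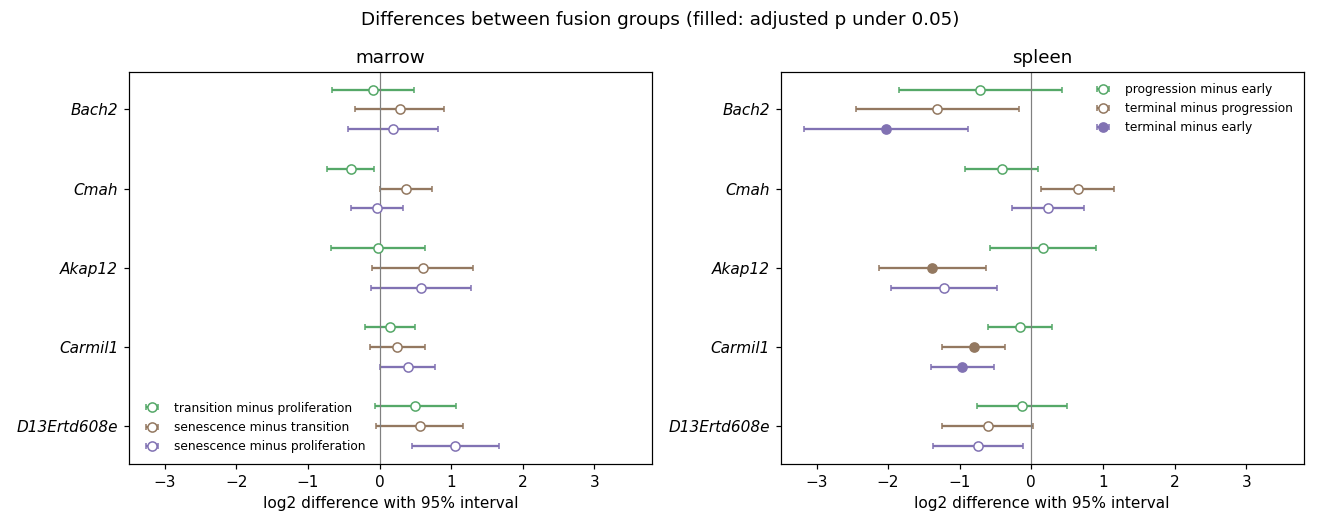
Log2 difference between fusion groups (points, with 95% intervals) for the 5 genes in marrow (left) and spleen (right); filled points have limma adjusted p under 0.05. The 4 filled points are all in spleen, Akap12 and Carmil1 for terminal minus progression and Bach2 and Carmil1 for terminal minus early.

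Markers of B cells were low in the same groups. The mean of 22 B cell genes, 12 of precursor and 10 of mature cells, was 8.35 to 8.64 in proliferation, 8.24 to 9.06 in transition and 8.40 to 9.02 in senescence marrow, against 9.19 to 10.18 in wild-type marrow. In spleen it was 7.69 to 8.45 in the early stage, 7.34 to 8.58 in progression and 6.49 to 7.53 in the terminal stage, against 9.08 to 9.39 in wild type. No fusion array reached the wild-type range in either tissue. By limma 6, 9 and 10 of the 10 mature genes were lower in early, progression and terminal spleen, and 6 of the 12 precursor genes in each, while 1, 4 and 2 precursor genes were higher. In proliferation and transition marrow 2 mature and 5 precursor genes were lower, and in senescence marrow 0 of 22, with 7 mature and 11 precursor genes lower and 1 mature gene higher at an unadjusted p under 0.05.

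With this mean as a covariate, limma called 0 of the 5 genes in each of the 6 comparisons with wild type. Of all genes 0 were then lower in each marrow state, and 185, 34 and 93 in early, progression and terminal spleen. Nothing is therefore read from the 0 of 5 about these genes. Their differences shrank unequally. In terminal spleen Bach2 stood at -0.51 ± 0.45, Cmah at 0.03 ± 0.44, Akap12 at -1.36 ± 0.66, Carmil1 at -1.31 ± 0.38 and D13Ertd608e at -1.82 ± 0.65. D13Ertd608e thus had nearly the value it had without the covariate, -1.80 ± 0.26, though with a larger error. In proliferation marrow the values were -1.18 ± 0.47 for Bach2, -0.71 ± 0.30 for Cmah, -1.49 ± 0.60 for Akap12, -1.07 ± 0.33 for Carmil1 and -1.91 ± 0.47 for D13Ertd608e. Since no fusion array reached the wild-type range of the marker mean, the fit against wild type extrapolates. The terminal spleens (6.49 to 7.53) did not reach the range of the early spleens (7.69 to 8.45), so that fit extrapolates too. Between fusion stages the covariate ended all 4 lower calls. Against the early stage, terminal Bach2 was at -0.23 (limma adjusted p = 0.722) and Carmil1 at -0.55 (limma adjusted p = 0.329). Against progression, Akap12 was at -0.92 (limma adjusted p = 0.162) and Carmil1 at -0.51 (limma adjusted p = 0.18), while Cmah was called higher in terminal spleen (0.99, limma adjusted p = 0.0414).

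Within groups the genes also tracked these markers to unequal degrees. Over the 14 spleens, the deviation of Bach2 from its group mean correlated with that of the B cell mean at r = 0.94. For Carmil1, Cmah and Akap12 r was 0.60, 0.59 and 0.53, and for D13Ertd608e it was -0.01. D13Ertd608e rose with the B cell mean in the early stage and fell as that mean rose in progression and the terminal stage. The points share arrays, and the Gapdh difference deviated with the B cell mean too (r = 0.61) and with the 5 genes (r between 0.33 and 0.72), so these are descriptions. In the 15 marrows r with the B cell mean was 0.49 for Bach2, 0.47 for D13Ertd608e, 0.37 for Cmah, 0.14 for Akap12 and 0.12 for Carmil1. Among the genes themselves the closest pairs were Akap12 with Carmil1 in spleen (0.72) and Bach2 with Akap12 in marrow (0.68).

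**Figure D4:**
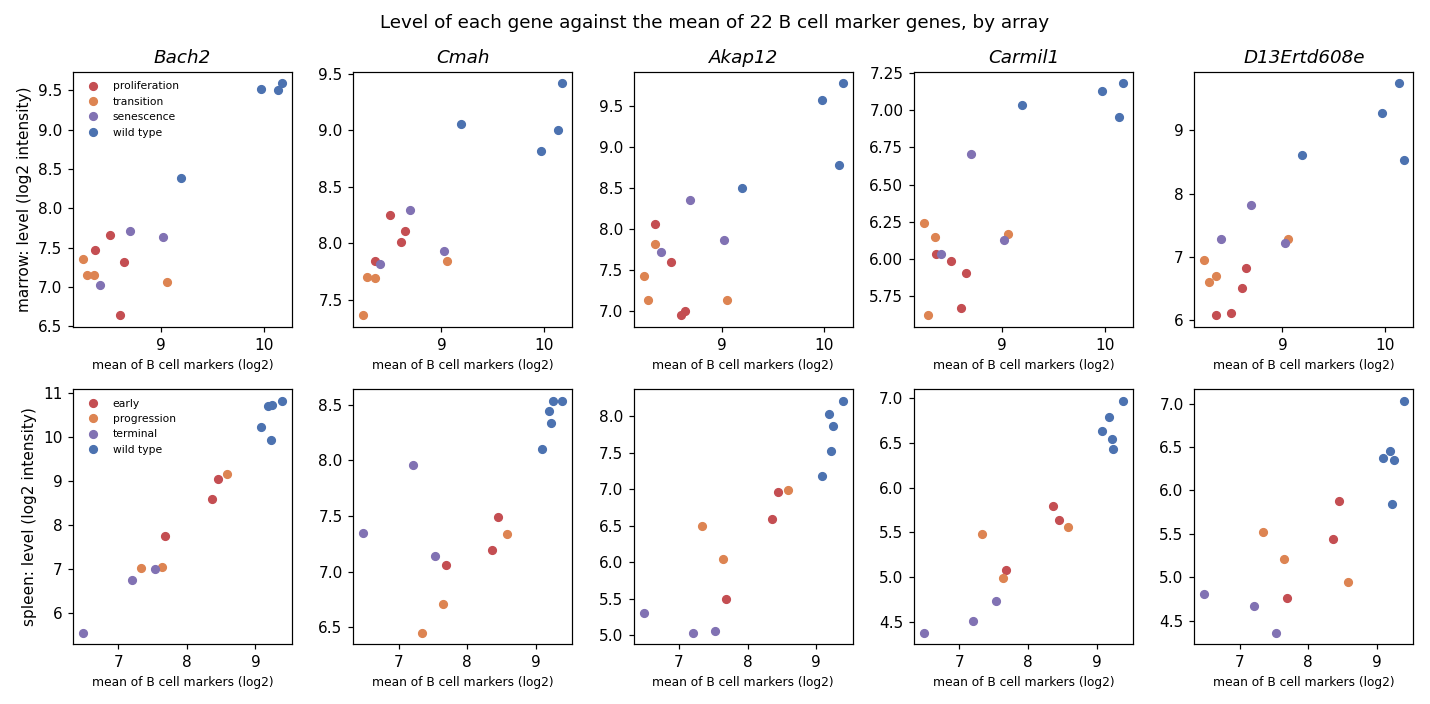
Log2 level of each gene (y axis) against the mean log2 level of 22 B cell marker genes (x axis) on every array, in marrow (top) and spleen (bottom), coloured by group. In spleen the Bach2 points rise with the marker mean within the fusion groups. Those of D13Ertd608e lie between 4.36 and 5.88, rising with it in the early stage and falling in progression and the terminal stage.

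Markers of other cell types differed in spleen as well. All 11 neutrophil genes and all 6 granulocyte precursor genes were higher than in wild type in each of the 3 stages by limma, with median differences of 1.42, 1.39 and 2.03 for the first list and of 3.57 to 4.03 for the second. Among all genes 7.35%, 9.29% and 18.1% were higher in these stages, and 15.9%, 19.3% and 34.5% changed in either direction. Of 11 T cell genes 9, 9 and 10 were lower. Of 11 monocyte and macrophage genes 8, 5 and 7 were lower and 1, 2 and 2 higher, and of 9 natural killer cell genes 5, 3 and 6 were lower and 0, 0 and 1 higher. In terminal spleen 8 of 9 erythroid and 9 of 14 endothelial and stromal genes were lower too. For Akap12, which such cells also express, the part of these markers in the result was not tested. At an unadjusted p under 0.05, 5 of 8 megakaryocyte genes were below wild type in terminal spleen and 7 of 8 in transition marrow. Against progression this threshold gave 8 of 8 megakaryocyte, 8 of 9 erythroid and 8 of 14 endothelial and stromal genes lower in terminal spleen. Of all genes 42.6%, 10.5% and 25.2% passed it in either direction in these comparisons. What part these markers have in the terminal calls was not tested. In marrow 1 monocyte and macrophage gene was lower in proliferation and 1 in transition, and 1 was higher in proliferation. There limma called 0 of 11 neutrophil and 0 of 11 T cell genes. At an unadjusted p under 0.05 there were 3, 0 and 2 neutrophil genes and 1, 4 and 3 T cell genes in proliferation, transition and senescence. Of the 11 monocyte and macrophage genes 6, 7 and 5 were under it, with 4 higher in each state and 2, 3 and 1 lower. Among all genes 9.9%, 10.5% and 6.36% were under this threshold there.

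The genes whose levels were most like each member over all arrays of a tissue were found by Pearson's r, which here mostly follows the gap between fusion and wild type that all these genes share. For Bach2 they were Fcrla (0.94), Foxo1 (0.93) and Blnk (0.92) in the 15 marrows, and Ebf1 (0.99), a transcription factor of early B cells, Gimap1 (0.98) and the B cell chemokine receptor Cxcr5 (0.98) in the 14 spleens. For Cmah they were Sit1 (0.92), Aig1 (0.91) and Ebf1 (0.90) in marrow. In spleen they were the Golgi protein gene Tgoln1 (0.96), the ubiquitin ligase gene Syvn1 (0.94) and the oxidoreductase gene Ero1b (0.94) of the endoplasmic reticulum. Bach2, the member most like Cmah in spleen, came at rank 771 of all genes there. For Akap12 they were Bach2 (0.92), Ebf1 (0.92) and Carmil1 (0.91) in marrow, and Fermt2 (0.97), Enc1 (0.97) and Trim7 (0.97) in spleen. For Carmil1 they were Akap12 (0.91), Slc41a2 (0.91) and Aig1 (0.91) in marrow, and Ube2e2 (0.97), the lymphotoxin gene Lta (0.97) and the kinase gene Prkcq (0.97) in spleen. For D13Ertd608e they were Gm16793 (0.92), Fcrla (0.91) and Cd5l (0.91) in marrow, and Tdrp (0.96), the zinc transporter gene Slc30a4 (0.96) and Eogt (0.94) in spleen.

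Genes around Bach2 in its regulatory circuit moved in both directions in spleen. Of 12 measured, 6 were lower and 3 higher in terminal spleen by limma (all genes 16.3% lower and 18.1% higher), with a list median of -0.42 against 0.04 for all genes. Lower were Mafk, a small Maf partner (-1.05 ± 0.12, limma adjusted p = 1.74e-05), Foxo1 (-2.52 ± 0.30), the B cell factor Pax5 (-0.75 ± 0.12) and Irf4 (-2.17 ± 0.40). Higher were the small Maf gene Mafg (0.68 ± 0.13), the relative Bach1 (0.59 ± 0.13) and the oxidative stress factor Nfe2l2 (0.45 ± 0.12). Hmox1, which BACH2 and BACH1 repress, was lower in all 3 stages (-1.68, -1.16 and -1.91), and Prdm1, named after its values were seen, was lower in progression (-1.45) and terminal spleen (-1.05). In the early stage 4 were lower and 1 higher, and in progression 5 lower and 2 higher. All genes were 8.55% and 9.96% lower and 7.35% and 9.29% higher in these stages. In marrow Foxo1 in transition (-0.80 ± 0.16, limma adjusted p = 0.0427) was the only call.

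Of 22 measured genes of sialic acid synthesis, transfer and recognition, 11 were lower and 5 higher in terminal spleen. The list median there was -0.39, and of all genes 16.3% were lower and 18.1% higher. Cmas, whose enzyme makes CMP-N-acetylneuraminic acid, the substrate of the Cmah enzyme, was lower there (-1.77 ± 0.10, limma adjusted p = 7.51e-08). It was at -0.04 and -0.11 in the early and progression stages. Also lower were Cyb5a, which encodes cytochrome b5, the electron donor of the hydroxylase (-1.10 ± 0.11), and the sialyltransferase genes St6gal1 (-2.49 ± 0.37) and St3gal1 (-0.90 ± 0.15). Higher were the sialic acid receptor genes Cd33 (2.01 ± 0.32) and Siglece (1.00 ± 0.16), the sialidase gene Neu1 (1.19 ± 0.20) and St3gal4 (0.63 ± 0.15). Cmas and Cyb5a were also lower in terminal than in progression spleen (-1.66 and -0.82 by limma), the contrast in which Cmah was at +0.65. In early spleen 2 were lower and 1 higher, and in progression 3 lower and 1 higher. Of all genes 8.55% and 9.96% were lower and 7.35% and 9.29% higher in these stages. In marrow 0 of 22 were called by limma in any state, with 5, 4 and 4 at an unadjusted p under 0.05. Of all genes 9.9%, 10.5% and 6.36% were under this threshold. Cd22 had the smallest p in proliferation and transition marrow (-1.31 and -1.42), and it also stands in the list of mature B cell genes.

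Of 15 measured genes of kinase anchoring, 2 were lower and 2 higher in early spleen, and 5 lower and 2 higher in progression. In terminal spleen 4 were lower and 2 higher, with a median of -0.09. Among all genes 8.55%, 9.96% and 16.3% were lower in these stages and 7.35%, 9.29% and 18.1% higher. Akap2, another anchor of protein kinase A, was lower in all 3 stages (-1.35, -1.50 and -1.97), as was the catalytic subunit gene Prkacb (-0.55, -0.61 and -0.83). The mitochondrial anchor gene Akap1 was higher in all 3 (0.68, 0.61 and 1.12), and Prkcd was higher in progression and terminal spleen (0.44 and 0.89). Of 14 genes of actin capping, 2 were lower and 1 higher in both the early stage and progression, and 2 lower and 8 higher in terminal spleen, with a terminal median of 0.45. Lower were Cd2ap, whose protein binds capping protein (-1.28, -1.27 and -1.62 over the 3 stages), and in progression and terminal spleen the myosin gene Myo1e (-1.26 and -2.29). Higher were Myo1f (1.09, 1.41 and 1.89) and, in terminal spleen, the Arp2/3 subunit genes Arpc5 (0.72) and Arpc4 (0.88) and the capping partner gene Twf2 (0.88). The capping protein subunit genes Capza1 and Capzb, whose product Carmil1 regulates, were higher in terminal spleen by 0.56 ± 0.13 and 0.47 ± 0.12 and were named after their values were seen. In marrow 0 of 15 and 0 of 14 were called by limma, with 2 anchoring genes in each state and 4, 3 and 3 capping genes at an unadjusted p under 0.05, where 9.9%, 10.5% and 6.36% of all genes were.

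By RefSeq's gene order, Carmil1 and Cmah lie side by side on chromosome 13 with 0 measured genes between them. D13Ertd608e is on the same chromosome, 373 measured genes away from Cmah, Akap12 is on chromosome 10 and Bach2 on chromosome 4. Of the 459 measured genes of chromosome 13, 101 (22%) were called lower in at least 1 comparison with wild type, against 20% of all genes. The genes of that chromosome called lower at least 4 times were 3 (0.654%, against 0.218% of all genes). They are the 3 members, which were chosen for such falls, so nothing is read from this share. Among 68 genes up to 10 measured places to each side of a member, 11 (16.2%) were called lower at least once, against 20% of all genes, and 11 higher. In early, progression and terminal spleen 4, 6 and 6 of the 68 were lower (all genes 8.55%, 9.96% and 16.3%). There 3, 6 and 9 were higher (all genes 7.35%, 9.29% and 18.1%). In marrow 0 of 68 were called lower by limma. At an unadjusted p under 0.05, 0, 0 and 2 were lower in proliferation, transition and senescence, against 346, 472 and 257 of 12394 genes. At that threshold 6, 5 and 4 were higher, against 881, 824 and 531 of all genes. In each marrow state 1 neighbour, Esr1, was called higher, against 0.113%, 0.186% and 0.0323% of all genes (0.282%, 0.42% and 0.0484% in either direction).

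Carmil1 and Cmah were not flanked by other genes low in all comparisons. Scgn, the measured gene before Carmil1, was at 0.06, 0.08 and -0.01 in the marrow states and 0.13, 0.31 and 0.16 in the spleen stages. Ripor2, the one after Cmah, was at 0.67, 0.41 and 0.48 in marrow and -0.47, -0.73 and -0.01 in spleen, lower in progression (limma adjusted p = 0.0241). Hfe, the haemochromatosis gene, was lower in early (-1.38 ± 0.22) and terminal spleen (-0.68 ± 0.22). Near Bach2, Pnrc1 was lower in all 3 spleen stages (-0.87, -1.04 and -1.03), and Epha7 higher in progression (2.85 ± 0.54). Near D13Ertd608e, Nnt was higher in all 3 (0.59, 0.77 and 0.86).

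Close to Akap12 lay genes with large differences the other way. Esr1, 3 places after it, was higher in all 6 comparisons, by 2.34, 2.35 and 2.31 in marrow and 2.32, 2.07 and 2.17 in spleen. The construct carries a piece of the oestrogen receptor, and whether the Esr1 probe set read the construct or the neighbouring gene was not tested. Syne1, 4 places after it, was higher by 1.83, 1.94 and 2.52 in the spleen stages. Zbtb2, the next measured gene after Akap12, was at -0.01, -0.04 and -0.12 in marrow. It was slightly lower in early (-0.40, limma adjusted p = 0.0279) and progression spleen (-0.47, limma adjusted p = 0.0111), and at -0.21 in terminal spleen. Iyd, the one before it, was between -0.21 and 0.19 in all 6.

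**Figure D5:**
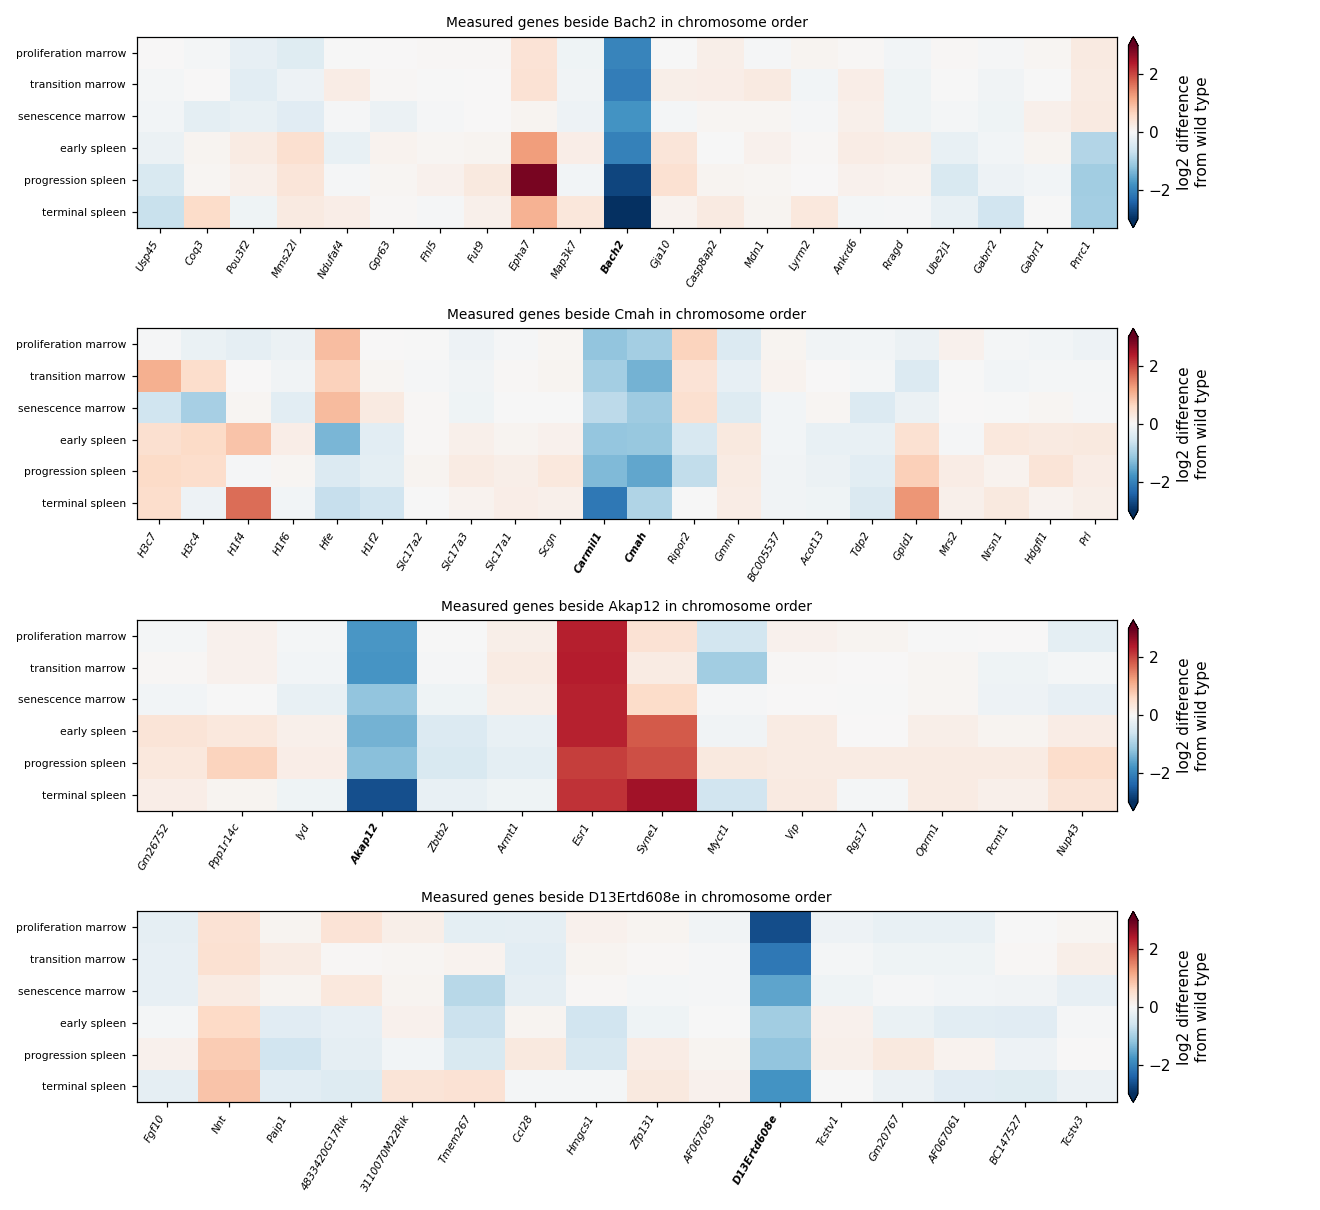
Log2 difference from wild type (colour, saturated beyond 3) in the 6 comparisons (rows) for measured genes in chromosome order around Bach2, Cmah with Carmil1, Akap12 and D13Ertd608e (columns, members in bold). The members stand out as blue columns among mostly pale neighbours, and Esr1 is red in all 6 rows, between 2.07 and 2.35.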

How the data were processed

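RNA from 15 marrows and 14 spleens was measured on an Affymetrix mouse array. The deposited values are log2 intensities per probe set, made with RMA through the affy package per the submitters' processing notes, which also name limma (versions not given in the sources used here); marrow and spleen arrays have different medians and were analysed apart. GEO's platform annotation gave 1 symbol for 20393 of 22690 probe sets, several for 691 and none for 1606. Each gene was represented by its brightest probe set in the tissue, which left 12394 genes.

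One limma model (version 3.58.1, R 4.3.3) with 4 groups was fitted per tissue, with Benjamini-Hochberg adjustment over all genes at 0.05. The probe sets of a gene with several were also fitted over all probe sets. The scripts were tested on simulated data. Arrays give no counts, so their number limits the precision. The labels call the arrays of a group biological replicates. Where 2 arrays did not come from separate mice, p-values measure only the spread between arrays. Replicate numbers are shared between groups, but the labels state no pairing and the main fit used none. Deviations of same-numbered arrays correlated between -0.43 and 0.55 in marrow (21 pairs, median 0.09) and between -0.32 and 0.23 in spleen (18 pairs, median 0.01). For different numbers this was -0.60 to 0.70 (63 pairs, median -0.02) and -0.35 to 0.36 (54 pairs, median -0.01). So wide a spread cannot exclude a pairing.

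The members and the gene lists were chosen with earlier results of these data known. Named beyond the members were genes called lower in at least 4 of 6 comparisons with wild type, the called list genes with the smallest p in each direction, the 3 genes most like each member in each tissue, and called neighbours with the smallest p, besides direct neighbours; others are said to be named after their values were seen. The distance from Cmah to D13Ertd608e is given as a count of measured genes, ordered by their RefSeq starts. Promoter windows come from RefSeq (GRCm38.p6). Alternatives covered normalization, centring, dim genes, probe sets, samples in the fit, the replicate block, Xist, Gapdh and B cell covariates, and each array left out. Figures were drawn with matplotlib 3.10.9.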

Additional observations from a re-analysis of the deposited data

Results flagged for a closer look

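Of 88 groups of 4 or 5 arrays examined over the members' probe sets and the gene lists, 12 held 1 array far from the rest, and chance alone gives about 1 in 20. Groups of 3 arrays were not examined.

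Bach2 was at 8.384 in wild-type marrow replicate 2, where the nearest array of the group was at 9.51. In the same array the list of the Bach2 circuit averaged 10.001 (nearest 10.118) and the B cell precursor list 8.968 (nearest 9.84). The second Cmah probe set was at 8.214 in wild-type marrow replicate 1 (nearest 7.301) and at 7.518 in wild-type spleen replicate 2 (nearest 6.781). Carmil1 was at 5.62 in transition marrow replicate 2 (nearest 6.146).

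Transition marrow replicate 1 stood apart in 3 lists: the actin capping list averaged 12.243 (nearest 12.834), the B cell precursor list 8.652 (nearest 7.973) and the neutrophil list 14.008 (nearest 14.407). The adipocyte and muscle list averaged 10.544 in proliferation marrow replicate 1 (nearest 7.93). The T cell list averaged 8.786 in wild-type spleen replicate 1 (nearest 8.945), and the erythroid list 10.051 in wild-type spleen replicate 5 (nearest 10.346).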

How the results depend on the processing

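Of 451 member differences from wild type over all settings but the B cell covariate, 451 were below 0 (-4.34 to -0.66), and with that covariate 480 of 481, the exception being Cmah in terminal spleen (0.031). The members were chosen for lying below wild type on these same arrays, so nothing is read from this direction. Counts of members called by limma moved more. With the B cell mean as covariate they were 0 in all 6 comparisons with wild type, 1 for terminal against progression (Cmah, higher, with neither lower call kept) and 0 for terminal against early. With Xist they were 2 in proliferation, 3 in transition and 1 in senescence marrow, 0 for terminal against progression and 1 for terminal against early. With the Gapdh difference they were 3 in transition, 1 in senescence and 0 for terminal against early. Quantile normalization gave 1 in senescence and 1 for terminal against progression, and the mean of all probe sets 0 in senescence. Fitting the compared groups only gave 0 in senescence, 1 for terminal against progression and 0 for terminal against early. Among genes above the median level, which keep 2 members in spleen and 0 in marrow, 2 were called in each spleen stage, 0 for terminal against progression and 1 for terminal against early. The replicate block, for which the labels give only a shared number, gave 0 in senescence and 2 in early. It gave 0 for terminal against progression, 1 for terminal against early, and 2 neighbours lower at least once. The B cell covariate left 1 neighbour. Leaving out 1 array gave 0 to 3 in senescence, 0 to 2 for terminal against progression, 0 to 4 for terminal against early, and 8 to 12 neighbours. Small differences between groups changed sign: Akap12 in transition against proliferation (0.0017 with quantile normalization, 0.0025 with Gapdh, -0.18 to 0.20 without 1 array), Bach2 there (-0.30 to 0.0385) and in senescence against proliferation (-0.0244 to 0.40), Cmah in senescence against proliferation (0.0155 with the mean of probe sets, -0.18 to 0.059 without 1 array), and in progression against early Akap12 (-0.26 to 0.47), Carmil1 (-0.37 to 0.0183) and D13Ertd608e (-0.44 to 0.13), and Cmah in terminal against early (-0.0065 to 0.40). Over all genes, the count lower was 21, 29 and 2 in the marrow states, against 12, 17 and 1 with the block, and 1060, 1234 and 2023 in the spleen stages, against 433, 575 and 1427; with the B cell covariate it was 0, 0, 0, 185, 34 and 93. Centring turned the split in progression to 1028 lower and 1472 higher, against 1234 and 1152, and quantile normalization that of terminal against early to 514 and 229, against 481 and 338. The cause of these shifts was not tested. Group sizes of 3 to 5 arrays limit the precision, as do levels close to or below the lower quartile of the arrays. Such levels occurred in terminal spleen and, for Carmil1 and D13Ertd608e, in fusion marrow.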
